A study of Sus scrofa with 8 samples.

Results

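Immediate-early genes are switched on within minutes of a signal and need no new protein for it. They were described here across cell types in single-cell RNA-seq of pig embryos. Of 10 named genes, 7 were found among the gene names of the 21301 rows of the count matrices and are described below. These were FOS, FOSB, JUNB, ATF3, EGR1, KLF2 and KLF4, while JUN, JUND and IER2 were not analysed here. They were listed by name, with no threshold on their values.

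Somites were taken from Tibetan pigs (ZZ) and from Duroc x Tibetan pigs (DZ) on embryonic day (E) 16, 18 and 21, and the myotome, which somites give rise to and which makes skeletal muscle, on E28. Each stage and breed gave 1 library, named by both (E16-ZZ), and each library pooled 5 embryos of a sow. Where 8 values are given in a row they follow the stages, with ZZ before DZ at each stage. The labels name no transgene and no treatment. All tissues were kept on ice in medium and then digested at 37°C with collagenase and shaking, so every value below was measured after that handling.

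FOS and FOSB are basic leucine zipper proteins that pair with JUN proteins into the transcription factor AP-1. EGR1, a zinc finger factor, is induced by growth factors through MAP kinase and SRF, and ATF3 is a stress-responsive factor of the ATF/CREB family. KLF2 and KLF4 are zinc finger factors that endothelial cells induce under laminar blood flow. In dissected tissue these genes are also known to be induced by enzymatic digestion, which is why their level in a library can depend on how the tissue was handled.

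The 8 libraries held 90688 barcodes, of which 74147 were kept as cells, with a median of 3405 to 6161 UMIs (distinct RNA molecules) per cell and library. E16-ZZ had 39.2% of its barcodes over the limit of 10% mitochondrial UMIs against 1.05% to 9.15% in the other 7 libraries, and E28-DZ had the lowest median UMI count and the lowest median mitochondrial share, 3.68%. The tissue is tied to E28 and the Cell Ranger version to E16, so neither can be told apart from the stage. Libraries shared 23 to 49 barcode sequences per pair.

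Cells were assigned to classes by marker genes, none of which is an immediate-early gene described here. A cell had to carry at least 3 positive markers of a class and to meet the gate of no unrelated class, while cells that met the gates of related classes were given the later one (for example myocyte over muscle progenitor). This placed 34899 cells in 15 classes, left 35361 cells ungated and set aside 3887 that met the gates of unrelated classes. Class names carry -like since markers alone define them. The genes of largest fold in each class held 3 to 6 of its own markers among the top 10. Examples are CLDN5, PECAM1 and ESAM in endothelial-like cells and MYH3, TNNC2 and MYMK in myocyte-like cells. The gates required such markers, so this count is no independent check of the classes. Fibroblast-like cells were led by COL1A1, LUM and DCN but also by HAND1, AQP3 and APOE, so that gate holds more than dermal or muscle connective tissue. Macrophage-like cells reached the minimum of 20 cells in 1 library only and were not tested.

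The genes lie on 5 chromosomes of Sscrofa11.1 by the RefSeq annotation. FOS (ENSSSCG00000002383) lies at chr7:98449508-98451971 on the plus strand and FOSB (ENSSSCG00000031616) at chr6:51836780-51844531 on the plus strand. Chromosome 2 holds 3 of them, with EGR1 (ENSSSCG00000014336) at chr2:140440829-140445302 on the plus strand, KLF2 (ENSSSCG00000038911) at chr2:61270733-61273037 on the minus strand and JUNB (ENSSSCG00000013735) at chr2:66214086-66219435 on the minus strand. ATF3 (ENSSSCG00000015595) lies at chr9:130772259-130829678 and KLF4 (ENSSSCG00000005437) at chr1:248604817-248609574, both on the minus strand.

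These 3 stretches before the annotated starts are shown because the class patterns of their genes are described most fully below, FOS (found in every class), KLF2 (highest in endothelial-like cells) and EGR1 (highest in myocyte-like cells in 4 of the 6 libraries with a sum of them). Capitals mark TGACG, the core of the cyclic AMP response element, in FOS and EGR1, a MEF2 motif in KLF2, and GCGNGGGCG, the EGR motif, in KLF2 and in EGR1, where it lies on the opposite strand. The FOS stretch is chr7:98449258-98449357, the 100 bases farthest from the start in a window of 250. The KLF2 stretch is chr2:61273138-61273287 on the minus strand, from 250 to 101 bases before the start, and that of EGR1 is chr2:140440679-140440828, the 150 bases next to the start.
FOS: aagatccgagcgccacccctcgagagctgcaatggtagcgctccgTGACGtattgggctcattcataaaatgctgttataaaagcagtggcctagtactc
KLF2: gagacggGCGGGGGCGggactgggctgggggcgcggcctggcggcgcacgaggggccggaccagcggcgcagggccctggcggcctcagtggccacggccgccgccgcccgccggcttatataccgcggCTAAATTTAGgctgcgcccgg
EGR1: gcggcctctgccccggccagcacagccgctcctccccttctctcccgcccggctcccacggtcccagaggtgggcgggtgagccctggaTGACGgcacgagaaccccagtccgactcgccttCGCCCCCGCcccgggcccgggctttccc

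In all, 6 motifs were searched on both strands of the 250 bases before the starts of 19572 protein-coding genes. TGACG was present in 3 of the 7 genes (EGR1, FOS and KLF4) and before 19.6% of all starts. GCGNGGGCG was present in 2 (EGR1 and KLF2) against 9.49%, and the MEF2 motif in KLF2 alone against 2.55%. The full response element TGACGTCA, which contains TGACG, was present in none against 1.70%, the AP-1 motif TGANTCA in none against 5.27%, and the CArG box in none against 1.31%. The windows follow the annotated starts, and whether the FOS transcripts of these cells begin at the annotated start was not tested. A motif absent from a window, such as the CArG box from that of FOS, may lie outside it, and these matches describe letters only.

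FOS was found in every class and library and varied over a wide range. In all kept cells together it stood at 720.0, 440.0, 116, 243, 348, 524, 613 and 2608 CPM (the gene's share of all UMIs, on the usual scale of that unit). The last library, E28-DZ, thus stood more than 3 times above every other one, and E18-ZZ was the lowest.

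The cell classes differed in FOS within libraries. In fibroblast-like cells it ranged from 444 to 3475 CPM over the 8 libraries, with a median of 798, and in endothelial-like cells from 166 to 2801, with a median of 738. Chondrocyte-like cells followed with a median of 566 CPM and myocyte-like cells (6 libraries) with 458. The median of lateral mesoderm-like cells lay between these, from 4 libraries of E16 and E18 that held 165 to 890 CPM. Muscle progenitor- and myoblast-like, epithelial-like, cardiac-like, sclerotome-like and dermomyotome progenitor-like cells had medians of 262 to 423 CPM over 4 to 6 libraries. Macrophage-like cells, with a sum in E28-ZZ alone (24 cells), stood at 1651 CPM, the highest class of that library. At the low end stood neural crest- and glia-like cells with a median of 175 CPM, neural progenitor-like cells with 141 (6 libraries), neuron-like cells with 78.6 (7 libraries) and erythroid-like cells with 49.4. Over the libraries the ranges of neighbours in this order overlapped. Within libraries the ends of the order were separate, since fibroblast-like cells were above neuron-like cells in 7 of 7 libraries and erythroid-like cells were the lowest class in 8 of 8. The top of the order was not separate, as fibroblast-like cells were above endothelial-like cells in 5 of 8 libraries only.

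**Figure D1:**
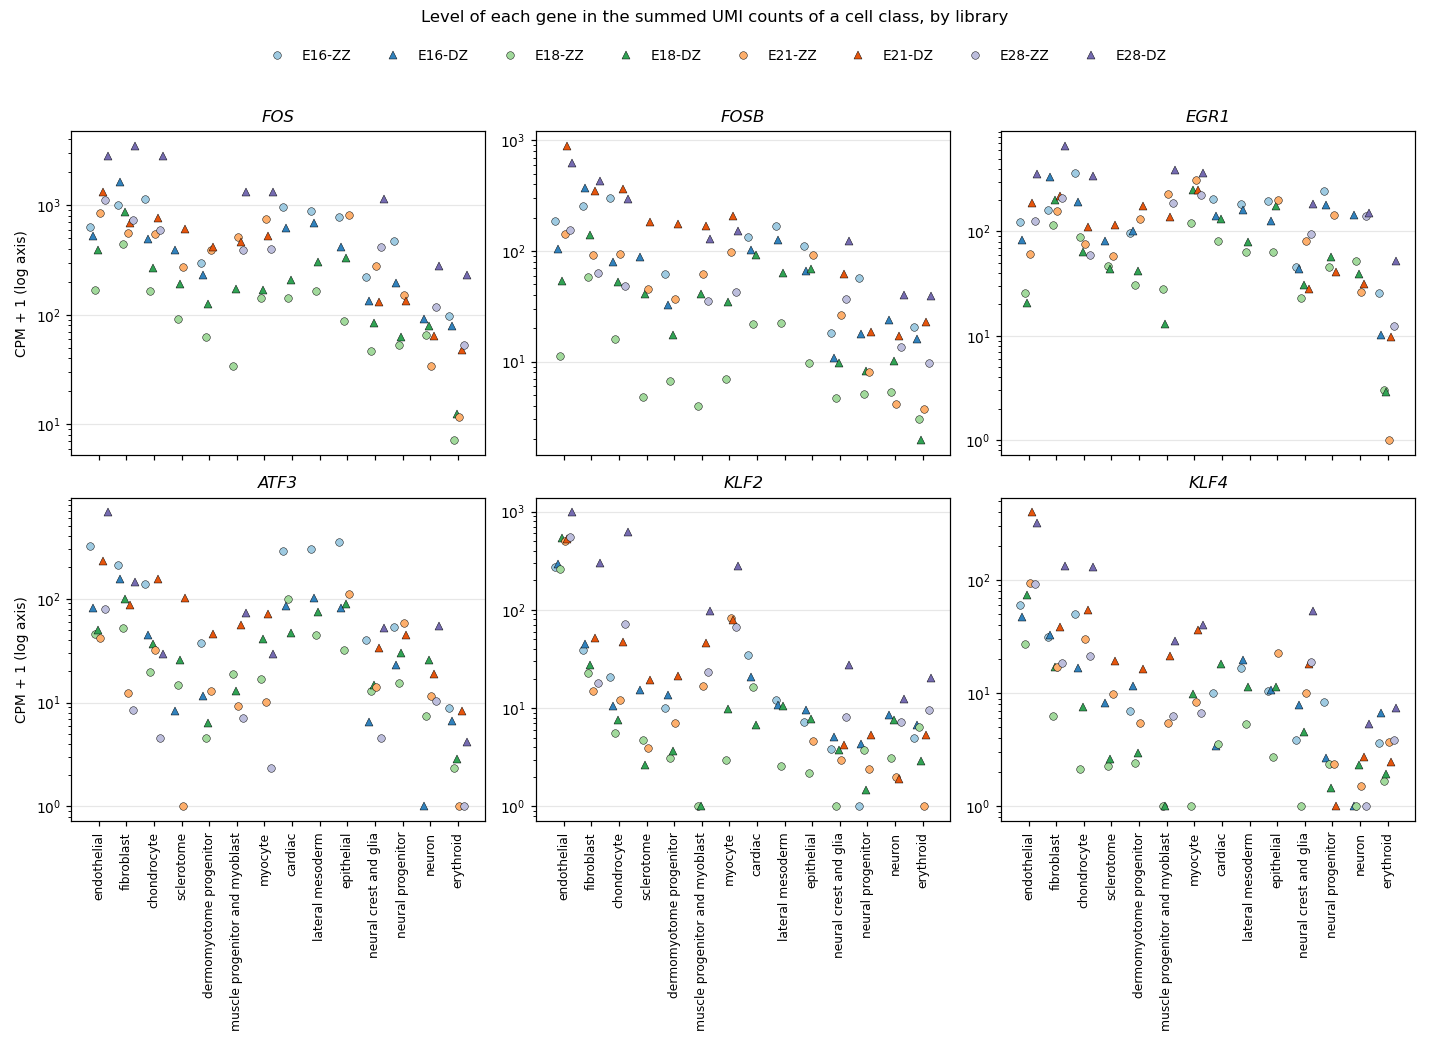
Level of FOS, FOSB, EGR1, ATF3, KLF2 and KLF4 as CPM + 1 on a log axis in the summed UMI counts of each cell class (horizontal axis, names without -like), with 1 point per library holding at least 20 cells of the class (circles ZZ, triangles DZ). KLF2 and KLF4 are highest in endothelial-like cells in all 8 libraries, and the E28-DZ points stand above the other libraries for FOS in all 8 classes where that library gave a sum.

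UMI counts were summed per library and class and fitted for all genes with library and class as terms (edgeR's quasi-likelihood test, 89 sums, 14 classes). For the class comparisons libraries were the replicates, and since each is the only library of its stage and breed, their spread holds stage, breed and handling at once. The class term was called (adjusted p under 0.05) for 91.9% of the 11217 genes tested and for all 6 members that passed the filter on low counts. JUNB did not pass it. A call on the class term is therefore the background for this tissue, and the sizes and directions below carry the description. Each class was compared with the mean of the other 13.

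KLF2 and KLF4 marked endothelial-like cells. KLF2 in these cells stood at 273, 292, 259, 536, 501, 520.0, 555 and 985 CPM. This was the highest class in 8 of 8 libraries, and all 8 values lay above the median of every other class. The log2 fold change was 5.39 ± 0.19 (SE, adjusted p = 1.5e-39). For KLF4 the 8 values ran from 26.2 to 398 CPM with a median of 81.8, again the highest class in 8 of 8 libraries, with a log2 fold change of 3.74 ± 0.16 (adjusted p = 8.6e-35). ATF3, FOSB and FOS were also higher in endothelial-like cells, by 2.07 ± 0.24, 1.70 ± 0.19 and 1.17 ± 0.18 on the log2 scale. EGR1 was not (-0.24 ± 0.23, adjusted p = 0.42), and it was below fibroblast-like cells in 8 of 8 libraries. Of all genes tested, 26.5% were called higher in this class, against 5 of 6 members.

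Fibroblast-like cells had all 6 tested members higher than the mean of the other classes, against 24.0% of all genes. The log2 fold changes were 2.07 ± 0.18 for FOSB, 1.80 ± 0.17 for FOS, 1.63 ± 0.19 for KLF4, 1.44 ± 0.26 for KLF2, 1.24 ± 0.19 for EGR1 and 1.22 ± 0.24 for ATF3. Chondrocyte-like cells had 4 of 6 called higher, against 13.6% of all genes, with KLF4 at 1.56 ± 0.21 and KLF2 at 1.55 ± 0.29. KLF2 in these cells was carried by the E28 libraries, with 71.2 CPM in E28-ZZ and 620.0 in E28-DZ but 4.62 to 46.2 in the other 6.

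In the muscle lineage EGR1 and KLF2 stood out in the differentiated cells. Myocyte-like cells held EGR1 at 120, 249, 311, 250.2, 223 and 365 CPM from E18-ZZ on, the highest class in 4 of 6 libraries. The log2 fold change against the other classes was 1.58 ± 0.23 (adjusted p = 3.2e-08). The muscle progenitor- and myoblast-like cells of the same libraries held EGR1 at 26.9, 12.0, 227, 137, 187 and 391 CPM in the same order, below the myocyte-like cells in 5 of 6, where the first pair of values rests on 9 and 3 UMIs. KLF2 was higher in myocyte-like cells (2.21 ± 0.30, adjusted p = 3.5e-09) and above the progenitor- and myoblast-like cells in both E21 and both E28 libraries, with 77.8 against 45.2 CPM in E21-DZ and 282 against 97.5 in E28-DZ. At E18 the myocyte-like cells held 1 and 5 KLF2 UMIs and the progenitor- and myoblast-like cells none, in 38 and 28 cells, which is too few to compare. FOS was 0.58 ± 0.23 higher in myocyte-like cells, and FOSB, with the same log2 fold change of 0.58, did not pass (adjusted p = 0.058). In all, 3 of 6 members were called higher, against 21.1% of all genes. None of the 6 was called in muscle progenitor- and myoblast-like cells (18.6% of all genes in either direction) or in sclerotome-like cells (4.84%), and ATF3 alone was called in dermomyotome progenitor-like cells (-1.73 ± 0.46, background 8.59%).

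RHOB, a small GTPase gene that is itself an immediate-early gene and that the study follows together with EGR1, was higher in myocyte-like cells by 0.90 ± 0.17 on the log2 scale. It was also higher in endothelial-like cells (1.69 ± 0.13) and in neural crest- and glia-like cells (1.04 ± 0.14), where FOS, FOSB, EGR1, ATF3 and KLF2 were all lower.

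ATF3 was higher in endothelial-like and fibroblast-like cells as given above, and also in cardiac-like cells (1.83 ± 0.39), epithelial-like cells (1.69 ± 0.31) and lateral mesoderm-like cells (1.54 ± 0.32). The last 3 classes came mainly from the early somites. Cardiac-like cells held ATF3 at 285 CPM in E16-ZZ against 84.5, 98.2 and 45.8 CPM in E16-DZ, E18-ZZ and E18-DZ. Of the 6 members, 3 were called higher in cardiac-like cells (13.7% of all genes), 3 in epithelial-like cells (15.8%) and 4 in lateral mesoderm-like cells (9.33%).

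Neural classes and erythroid-like cells were low. Neuron-like cells had all 6 tested members lower, against 24.7% of all genes, from -3.98 ± 0.42 for KLF4 and -3.40 ± 0.56 for KLF2 to -2.36 ± 0.30 for FOS and -1.05 ± 0.31 for EGR1. KLF4 had no UMI in neuron-like cells of 3 of 7 libraries, where 3 counts would be 6.43 to 22.7 CPM. Neural crest- and glia-like cells had 5 of 6 lower (9.11% of all genes) and neural progenitor-like cells 4 of 6 (15.0%). In the latter FOS, FOSB, KLF2 and KLF4 were lower by 1.23 to 2.87 on the log2 scale and EGR1 differed by 0.03 ± 0.27 (adjusted p = 0.99). Erythroid-like cells had 4 of 6 lower (31.9% of all genes), with ATF3 at -2.38 ± 0.57, EGR1 at -2.26 ± 0.38 and FOS at -1.67 ± 0.26.

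The FOS level of erythroid-like cells moved with that of the library. It was 3.08% to 17.7% of the level in all cells, with 6.15 CPM in E18-ZZ, the lowest library, and 229 CPM in E28-DZ, the highest. Free RNA in the droplets adds UMIs to all classes of a library, and its part in the low values of erythroid-like and neuron-like cells was not tested.

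**Figure D2:**
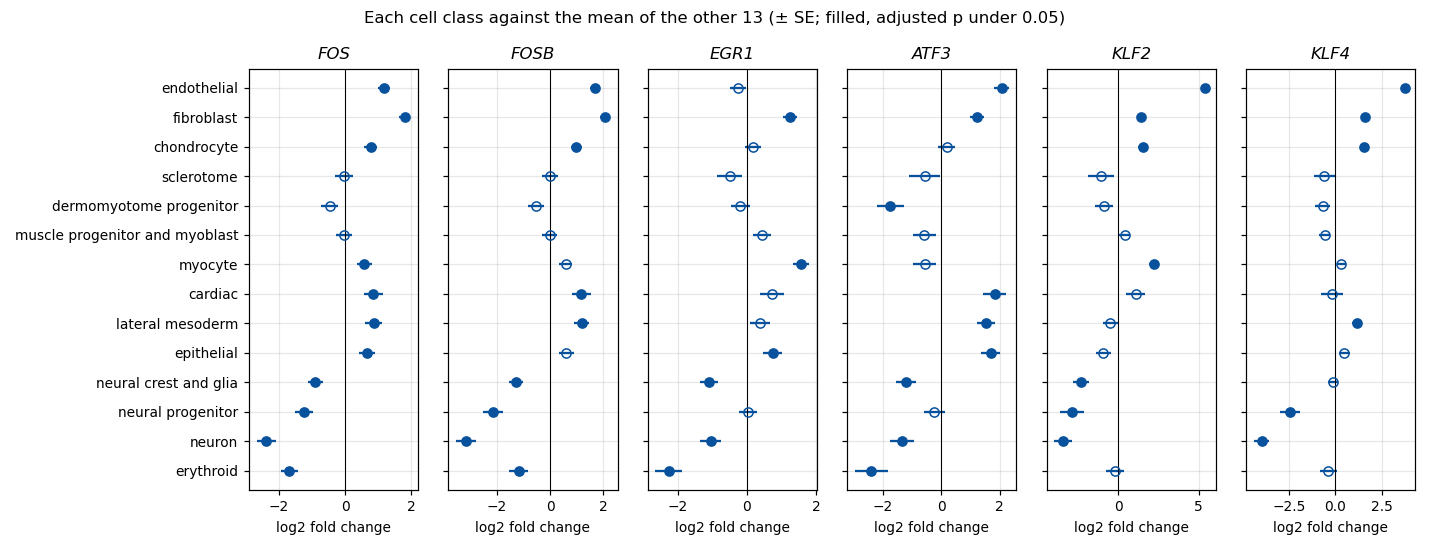
Log2 fold change ± SE of each cell class against the mean of the other 13 classes (horizontal axis) for the 6 tested genes, with classes on the vertical axis (names without -like) and filled points for adjusted p under 0.05. KLF2 reaches 5.39 and KLF4 3.74 in endothelial-like cells, and all 6 genes lie left of 0 in neuron-like cells.

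JUNB was barely counted. It had 210 UMIs among 382956742 in the kept cells, 0.55 CPM, with 4 to 85 UMIs per library. Among classes its highest level was 9.39 CPM, in endothelial-like cells of E21-DZ, which rests on 5 UMIs in 55 cells. FOS had 249299 UMIs, FOSB 41933, EGR1 60537, ATF3 25081, KLF2 22957 and KLF4 8924 in the same cells. The 10x libraries count reads near the annotated 3′ end of a gene, and whether that end is complete for JUNB was not tested, so its low count cannot be read as low expression. Between libraries JUNB in all cells was 2.01 CPM in E28-DZ (85 UMIs, exact Poisson 95% interval 1.61 to 2.49, for counting error only) against 0.256 in E28-ZZ (11 UMIs, 0.128 to 0.458) and 0.0757 in E18-DZ (4 UMIs, 0.0206 to 0.194), so these libraries differed by more than counting error. In fibroblast-like cells it had 49 UMIs in E28-DZ and 5 in E28-ZZ. JUNB was tested in the sum of all cells only, where late against early differed by 0.46 ± 0.91 on the log2 scale (adjusted p = 0.72) and DZ against ZZ by 1.16 ± 0.62 (adjusted p = 0.81).

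The libraries were compared within classes by the library term of the same fit. It was called for 71.5% of all genes and for all 6 tested members. Since all sums of a library come from the same pool of embryos, the same digestion and the same run, this test describes these 8 libraries and not stages or breeds.

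E28-DZ had all 6 tested members higher than the mean of the other 7 libraries, against 21.7% of all genes, and KLF2, KLF4, FOS and EGR1 had their largest increase there. KLF2 was higher by 2.99 ± 0.24 on the log2 scale, KLF4 by 2.44 ± 0.18, FOS by 2.19 ± 0.18, FOSB by 1.87 ± 0.20, EGR1 by 1.59 ± 0.21 and ATF3 by 1.47 ± 0.27. FOS and KLF2 were highest in E28-DZ in 8 of the 8 classes with a sum there, EGR1 and KLF4 in 7, and FOSB and ATF3 in 4. The ungated cells of E28-DZ also held the most FOS, 3414 CPM against 95.5 to 699 CPM in ungated cells of the other libraries.

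E18-ZZ had all 6 lower, against 7.75% of all genes, with FOSB at -3.00 ± 0.25, KLF4 at -2.60 ± 0.26, FOS at -2.25 ± 0.20, KLF2 at -1.66 ± 0.31, EGR1 at -1.44 ± 0.21 and ATF3 at -1.12 ± 0.28. FOS was lowest in E18-ZZ in 13 of 14 classes, FOSB and KLF4 in 12, KLF2 in 8, EGR1 in 7 and ATF3 in 4, and ATF3 was lowest in E28-ZZ in 6 of 8. These counts include ties of libraries without a UMI, such as KLF2 and KLF4 in muscle progenitor- and myoblast-like cells of both E18 libraries. E18-DZ had 5 of 6 lower as well, against 8.95% of all genes, by 0.86 to 1.21 on the log2 scale. Both E18 libraries held less FOS than each of the other 6 in chondrocyte-like, endothelial-like and neural crest- and glia-like cells, 3 of the 5 classes with a sum in every library. In fibroblast-like cells E18-DZ held 870.1 CPM, above E21-ZZ (562), E21-DZ (688) and E28-ZZ (727), in erythroid-like cells E21-ZZ (10.7) was below E18-DZ (11.3), and in neuron-like cells E21-ZZ was the lowest.

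ATF3 and FOSB did not follow FOS in every library. E21-DZ had FOSB at 1.99 ± 0.18, KLF4 at 1.66 ± 0.18 and ATF3 at 1.47 ± 0.25 above the mean of the others (3 of 6 members, 20.6% of all genes), while FOS (0.26 ± 0.18) and EGR1 (0.00 ± 0.20) did not pass. E16-ZZ had its largest change in ATF3, 1.85 ± 0.25, with smaller ones in FOSB, FOS and EGR1 (0.82, 0.65 and 0.54), which makes 4 of 6 members against 18.2% of all genes. KLF2 and KLF4 were not called there (-0.26 ± 0.33 and 0.01 ± 0.17). E28-ZZ, from the same tissue as E28-DZ, had ATF3 at -2.59 ± 0.41 and FOSB at -0.69 ± 0.26 (2 of 6 members lower, 11.5% of all genes), and FOS at 0.25 ± 0.22. In all cells ATF3 stood at 222, 58.5, 24.8, 35.0, 19.4, 80.3, 9.44 and 110 CPM. E16-DZ had none of the 6 called (39.3% of all genes in either direction; log2 fold changes from -0.21 to 0.24) and E21-ZZ had ATF3 alone called, lower by 0.89 ± 0.29 (9.58%).

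**Figure D3:**
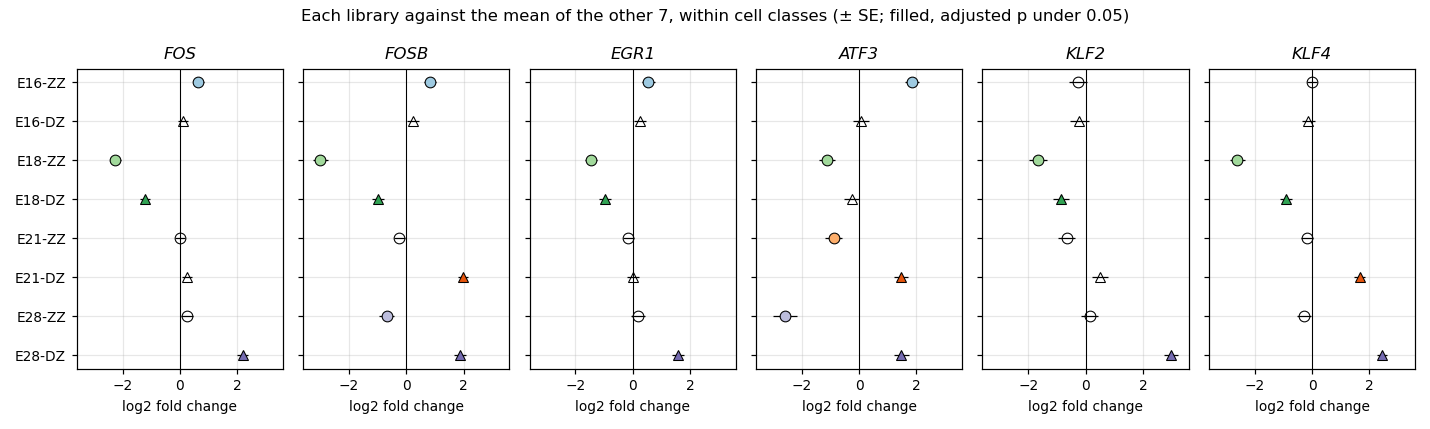
Log2 fold change ± SE of each library against the mean of the other 7 within cell classes (horizontal axis) for the 6 tested genes, with libraries on the vertical axis and filled points for adjusted p under 0.05. E28-DZ lies right of 0 and E18-ZZ left of 0 in all 6 panels, while E16-ZZ and E28-ZZ stand apart for ATF3.

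How much of the spread went with the class and how much with the library was split in the 5 classes that gave a sum in every library (chondrocyte-like, endothelial-like, erythroid-like, fibroblast-like and neural crest- and glia-like cells). For FOS 50.3% of the sum of squares of log2(CPM + 1) went with the class, 39.8% with the library and 9.88% with neither alone. FOSB had the largest library share among the members, 45.6%, followed by FOS, KLF4 (38.9%), ATF3 (36.0%), EGR1 (30.9%) and KLF2 (19.1%). KLF2 had the largest class share, 70.5%. The median over all 11217 genes was 38.0% for the class and 17.5% for the library, and 87.9% of genes had a smaller library share than FOS. RHOB had a library share of 8.72%, below that median. The larger class share of FOS rested on the erythroid-like cells. Over the other 4 classes FOS had 38.6% with the class and 49.6% with the library, ATF3 34.6% and 45.6%, KLF4 43.2% and 47.6%, and EGR1 38.8% and 40.6%, while the medians over all genes were 25.3% and 29.0%. KLF2 kept the larger class share, 74.1% against 18.0%.

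Much of the library share of FOS rested on E28-DZ. Without it the share fell to 24.0% for FOS, 17.9% for EGR1 and 6.45% for KLF2, against a median over all genes of 16.8%. FOSB and ATF3 kept 38.9% and 38.1%. Without E16-ZZ the library shares were 41.4% for FOS, 48.9% for FOSB and 33.0% for ATF3.

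**Figure D4:**
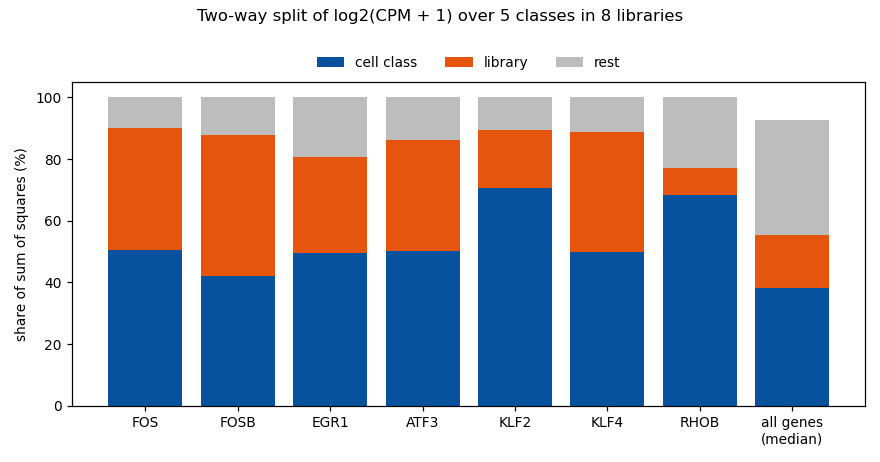
Share of the sum of squares of log2(CPM + 1) that goes with the cell class, the library or the rest (vertical axis, percent) over 5 classes in 8 libraries, for 6 immediate-early genes, RHOB and the median of all genes, whose 3 medians need not add up to 100%. The library share is 39.8% for FOS and 45.6% for FOSB against a median of 17.5%.

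Shares of cells were compared at a fixed depth of 1500 UMIs per cell. After thinning, 12.5% of E18-ZZ cells had a FOS UMI (exact binomial 95% interval 11.8% to 13.3%, for counting error only) and 84.4% of E28-DZ cells (83.7% to 85.1%). The share of fibroblast-like cells with a FOS UMI was 41.3% in E18-ZZ and 93.1% in E28-DZ, and that of neuron-like cells 5.21% and 32.6%. Erythroid-like cells, the class with the lowest level, had 1.16% and 13.5%. KLF2 was found in 25.4% to 54.2% of endothelial-like cells per library, and in medians of 4.83% of fibroblast-like and 1.04% of neuron-like cells. Without thinning the KLF2 median in endothelial-like cells was 66.0%. Thinning left out 101 to 1086 cells per library, and median depths before it were 7402 UMIs in endothelial-like, 3567 in fibroblast-like, 3896 in neuron-like and 7423 in erythroid-like cells.

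Over all cells of a library the genes were found together in the same cells. At 1500 UMIs, cells with a FOS UMI had an EGR1 UMI more often than cells without in 8 of 8 libraries, with medians of 24.1% and 10.4%. The same held in 8 of 8 libraries for FOSB (15.4% and 3.63%), ATF3 (10.2% and 3.50%), KLF2 (4.76% and 2.42%) and KLF4 (2.94% and 1.13%). Within fibroblast-like cells EGR1, FOSB and ATF3 kept this direction in 8 of 8 libraries, KLF4 in 6 and KLF2 in 5. Within myocyte-like cells, where 4 libraries had enough cells, EGR1 was found in 43.0% of cells with a FOS UMI and in 18.2% of those without (medians, 4 of 4 libraries). Neural crest- and glia-like cells did not keep the direction for every gene. There EGR1 and ATF3 were found more often beside FOS in 5 of 5 libraries, FOSB in 3, and KLF2 and KLF4 in 2, with KLF4 medians of 1.87% with and 1.92% without a FOS UMI. In neuron-like cells EGR1 and FOSB were found more often in 3 of 3 libraries and KLF4 in 1. Cells of a library share its free RNA, so these shares are descriptions.

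Across the 89 sums the log2(CPM + 1) values of FOS and FOSB had a Pearson r of 0.92, and with the mean of each class taken out 0.88. FOS and EGR1 had 0.80 and 0.84 in the same way. ATF3 was least like the others, with 0.41 to 0.62, and 0.28 to 0.54 after the class means were taken out. The sums of a library share its depth and handling, so these values are no test. Among 5498 genes with a mean of at least 20 CPM, those most like the mean of the members were NR4A1, a nuclear receptor that is itself an immediate-early gene (r = 0.76), DUSP1, a phosphatase of MAP kinases (0.76), MYADM (0.74), RHOC, a small GTPase (0.73), and ANXA2 (0.72). The genes most like FOS were RHOC (0.74), ANXA2 (0.72) and SPARC (0.71). KLF2 was most like RAMP2, a receptor subunit for adrenomedullin (0.82), DUSP1 (0.75) and ITM2A (0.72), and ATF3 was most like EFNA1 (0.66), MYADM (0.65) and ACTN4 (0.64). Part of these likenesses lay in the class means, since with them taken out r was 0.37 for KLF2 and ITM2A, 0.37 for ATF3 and EFNA1, 0.46 for the mean of the members and ANXA2, and 0.78 for the mean of the members and DUSP1.

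Late (E21 and E28) and early (E16 and E18) libraries were compared within each class that gave at least 3 sums on each side, with breed as a covariate. In endothelial-like cells FOS was higher in the late libraries by 1.59 ± 0.41 on the log2 scale (adjusted p = 0.015), KLF4 by 1.77 ± 0.36 (adjusted p = 0.0054) and KLF2 by 0.82 ± 0.21 (adjusted p = 0.015). These were 3 of 6 members, against 13.4% of all genes called higher. FOS was 166 to 636 CPM in the 4 early and 840 to 2801 CPM in the 4 late libraries. KLF4 was 26.2 to 72.8 and 90.9 to 398 CPM in the same way. Neither overlapped, and the share of all genes without overlap in this split is not given here. KLF2 did overlap, with E18-DZ (536 CPM) above E21-ZZ and E21-DZ. Without E28-DZ KLF2 was no longer called (0.62), nor without E28-ZZ (0.74). FOS and KLF4 stayed called without any 1 library, and without both E28 libraries FOS was not (1.15, adjusted p = 0.14).

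In neural crest- and glia-like cells 4 of 5 tested members were higher in the late libraries, against 14.7% of all genes. The log2 fold changes were 2.89 ± 0.55 for KLF4, 2.60 ± 0.42 for FOSB, 1.84 ± 0.56 for FOS and 1.36 ± 0.42 for EGR1, and RHOB rose by 1.26 ± 0.18. FOS in these cells was 219, 131, 45.8 and 83.8 CPM in the early libraries and 275, 129, 414 and 1135 CPM in the late ones, so the groups overlapped. Without E28-DZ the FOS difference was 0.89 (adjusted p = 0.17) and that of EGR1 0.70 (adjusted p = 0.19), while KLF4 (2.39) and FOSB (2.23) stayed called. Both FOS and EGR1 also lost their call without E18-ZZ (1.58 and 1.14, adjusted p = 0.059 and 0.088) and without E18-DZ (1.56 and 1.20, adjusted p = 0.079 and 0.081), and FOS without E16-DZ (1.85, adjusted p = 0.060).

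In chondrocyte-like cells KLF2 alone was called, higher by 4.43 ± 1.18 (adjusted p = 0.038, background 6.03%), and it lost its call without any 1 of the E16, E18 and E28 libraries (2.63 to 4.94, adjusted p = 0.055 to 0.18). No member was called in fibroblast-like (31.3% of all genes called), neuron-like (14.8%) or erythroid-like cells (1.15%) or in the sum of all cells (34.4%). In fibroblast-like cells FOS differed by -0.11 ± 0.49 and ATF3 by -2.27 ± 0.83 (adjusted p = 0.064). Whether the classes differ from each other in their late against early difference was not tested. FOS in all cells was 348 to 2608 CPM in the late and 116 to 720.0 CPM in the early libraries.

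The breeds were compared within each class with the stage as a block. Of 9 pairs of a gene and a class called higher in DZ, 8 lay in the muscle classes, which had no sum at E16. In the tested classes with an E16 sum of both breeds that stage entered the fit. Without E16-ZZ or without E16-DZ the pairs called numbered 18. Neuron-like cells had an E16 sum in DZ only, so their fit rested on E18, E21 and E28 as in the muscle classes. None of their 4 tested members was called. There ATF3, FOS and FOSB were higher in DZ at 3 of 3 stages and EGR1 at 2 (adjusted p = 0.45 for FOSB). Whether the breed difference itself differed between classes was not tested. In muscle progenitor- and myoblast-like cells 5 of 6 were called, ATF3 by 2.90 ± 0.34 (adjusted p = 2.9e-06), KLF4 by 2.33 ± 0.38 (4.4e-04), KLF2 by 1.91 ± 0.26 (4.8e-05), FOSB by 1.78 ± 0.21 (2.9e-06) and FOS by 1.08 ± 0.24 (0.019). Of all 9657 genes tested there, 0.414% were called higher in DZ. EGR1 differed by 0.16 ± 0.24 (adjusted p = 1.0) and was higher in DZ at 1 of 3 stages. In myocyte-like cells 3 of 6 were called, against 0.160% of all genes, ATF3 by 3.05 ± 0.34 (adjusted p = 5.4e-05), KLF4 by 2.64 ± 0.30 (7.4e-05) and FOSB by 1.59 ± 0.19 (1.0e-04). KLF2 (1.19 ± 0.29, adjusted p = 0.13), FOS (0.55 ± 0.26, 0.83) and EGR1 (0.46 ± 0.18, 0.69) did not pass there.

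Both fits rested on E18, E21 and E28, with 1 library of each breed per stage. ATF3 in myocyte-like cells was 15.7 CPM in E18-ZZ against 40.3 in E18-DZ, and the later pairs were 9.05 against 70.7 (E21) and 1.35 against 28.1 (E28), so DZ was higher at 3 of 3 stages. In progenitor- and myoblast-like cells ATF3 was higher in DZ at 2 of 3, with 17.9 against 12.0 CPM at E18 (6 and 3 UMIs). FOSB in muscle progenitor- and myoblast-like cells was 2.99 against 40.1 CPM (E18, from 1 and 10 UMIs), 61.3 against 167.2 (E21) and 34.5 against 128 (E28), again 3 of 3. FOS in these cells was 32.9 and 173, 507 and 459, and 386 and 1327 CPM, which is 2 of 3. KLF2 and KLF4 had no UMI in the progenitor- and myoblast-like cells of either E18 library (38 and 28 cells, 3 counts being 8.97 and 12.0 CPM), so their values rest on E21 and E28. Without E28-DZ or E28-ZZ, which gave the same values, ATF3, FOSB and KLF2 stayed called in progenitor- and myoblast-like cells (2.27, 1.68 and 1.61), FOS did not (0.47, adjusted p = 0.57) and KLF4 was not among the genes tested, while ATF3, KLF4 and FOSB stayed called in myocyte-like cells (2.62, 2.52 and 1.39).

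Outside the muscle lineage KLF2 was called in chondrocyte-like cells (2.48 ± 0.29, adjusted p = 0.0032, background 0.0312%). There it was 19.7 CPM in ZZ against 9.45 in DZ (E16, from 4 and 3 UMIs), 4.62 against 6.54 (E18) and 71.2 against 620.0 (E28). At E21 it was 46.2 CPM in DZ (231 UMIs in 1042 cells), and 903 cells of ZZ held 41 UMIs. No member was called in endothelial-like (0.0104% of all genes called), erythroid-like (0.234%), neural progenitor-like (0.0545%), neural crest- and glia-like (0.0938%), dermomyotome progenitor-like (0%), fibroblast-like (0.0536%) or neuron-like cells (0%), or in the sum of all cells (0%). Where edgeR called 0 genes, the count at an unadjusted p under 0.05 was 355 of 6688 in dermomyotome progenitor-like cells, 422 of 8948 in neuron-like cells and 918 of 15119 in all cells. The smallest adjusted p among the differences in these classes was 0.063, for FOSB in neural crest- and glia-like cells (1.19 ± 0.26), followed in fibroblast-like cells by EGR1 (1.05 ± 0.16, adjusted p = 0.072) and FOSB (1.70 ± 0.28, adjusted p = 0.086). In all cells the 7 fitted log2 fold changes of DZ against ZZ ran from 0.51 to 1.55.

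The direction was not the same at every stage. KLF2 was higher in DZ in 7 of 10 classes at E16 (median ratio 1.16) and KLF4 in 6 of 10 (1.03). At E16 FOS was higher in DZ in 1 of 10 classes, with a median ratio of DZ to ZZ of 0.70, and ATF3 in 0 of 10 (median ratio 0.31). At E18 FOS was higher in DZ in 14 of 14 classes (median ratio 1.83), at E21 in 7 of 11 (1.22) and at E28 in 8 of 8 (3.37). FOSB was higher in DZ in 1 of 10 classes at E16, 13 of 14 at E18, 11 of 11 at E21 and 8 of 8 at E28. ATF3 in E28-DZ was 11.9 times the level in E28-ZZ in the median of the 7 classes with an ATF3 UMI in both. FOS in progenitor- and myoblast-like cells also lost its call without any E18 library (0.86, adjusted p = 0.80) and with DESeq2 (1.34, adjusted p = 1.0), KLF4 there with DESeq2 (2.24, adjusted p = 0.61), and KLF2 in chondrocyte-like cells without any E28 library (1.75, adjusted p = 0.11), without any E21 library (2.64, adjusted p = 0.058) and with DESeq2 (1.43, adjusted p = 1.0). With 1 library per stage and breed, breed, pool of embryos and handling cannot be told apart.

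Barcodes over the mitochondrial limit, which were left out above, were compared with the kept cells of the same library. None of the 7 genes differed at an adjusted p under 0.05 in the exact two-sided sign-flip permutation test over 8 libraries. KLF2 had the largest difference, with a mean log2 difference of 1.00 ± 0.73 (SD, n = 8, exact adjusted p = 0.055), and was higher over the limit in 7 of 8 libraries. KLF4 was 0.61 ± 0.48 higher (SD, n = 8, exact adjusted p = 0.055), also in 7 of 8. Both had an unadjusted p of 0.016. FOS differed by -0.23 ± 0.47 (SD) and EGR1 by -0.18 ± 0.28. In E16-ZZ, with 3993 such barcodes, FOS was 748 CPM over the limit and 720.0 in kept cells, and ATF3 260 and 222 CPM.

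Mitochondrial UMIs are part of the total behind CPM, so CPM were also taken over the other genes. On that scale FOSB, ATF3, KLF2 and KLF4 were higher over the limit (0.45, 0.52, 1.21 and 0.81 on the log2 scale, n = 8, exact adjusted p = 0.027 for each), FOSB in 8 of 8 libraries and the other 3 in 7 of 8. FOS (-0.02) and EGR1 (0.03) did not pass. Endothelial-like cells, which hold the most KLF2, had a median mitochondrial share of 6.83%, against 2.55% to 6.93% in the other classes, and the part of cell class in this contrast was not tested. In E16-ZZ ATF3 CPM over non-mitochondrial UMIs was 99.4 in barcodes with up to 2% mitochondrial UMIs, 225 at 4 to 6%, 286 at 8 to 10% and 376 above 20%, and FOS was 451, 770, 854 and 964 in the same bins.

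**Figure D5:**
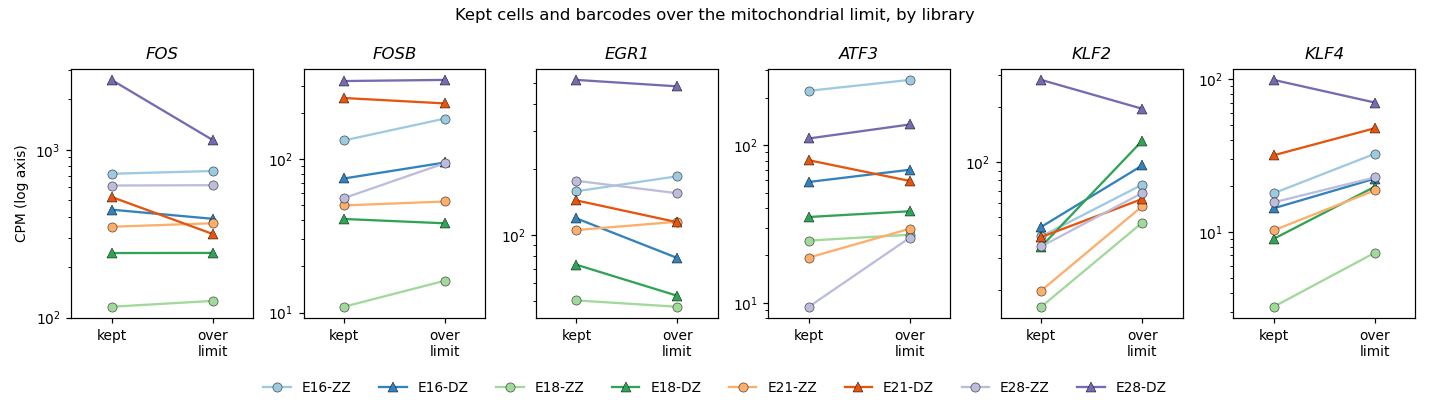
Level of 6 genes (CPM on a log axis) in kept cells and in barcodes over the mitochondrial limit of the same library, with 1 line per library (circles ZZ, triangles DZ). KLF2 and KLF4 rise over the limit in 7 of 8 libraries and fall in E28-DZ, while FOS in E28-DZ is 2608 CPM in kept cells and 1145 over the limit.

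Related genes were taken from lists set by function. Among 13 other immediate-early transcription factors tested, 12 were higher and none lower in endothelial-like cells, with a median log2 fold change of 1.88 against -0.03 over all genes. CSRNP1 (3.11 ± 0.26), NR4A1 (2.83 ± 0.24) and NR4A2 (2.80 ± 0.26) led. In E28-DZ 10 of these 13 were higher and none lower (median 1.00 against 0.06), led by NR4A2 (1.95 ± 0.29), EGR2 (1.62 ± 0.31) and MAFF (1.60 ± 0.19). In E18-ZZ none was higher and 9 were lower (median -1.14 against -0.01), led by NR4A1 (-1.76 ± 0.32). In neuron-like cells 1 was higher and 9 lower (median -0.91 against 0.03). Of all genes, 26.5% were higher in endothelial-like cells, 21.7% higher in E28-DZ, 7.75% lower in E18-ZZ and 24.7% lower in neuron-like cells.

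Feedback regulators that are induced with these genes, such as dual-specificity phosphatases and Sprouty proteins, were mostly higher in endothelial-like cells. Of 21 tested, 19 were higher and none lower there (median 1.49 against -0.03 over all genes). In E28-DZ 14 were higher, none lower and 7 not called (median 0.74 against 0.06). In E18-ZZ 11 were lower, 2 higher and 8 not called (median -0.63 against -0.01), where 7.75% of all genes were lower and 9.39% higher. In E28-DZ the largest were SOCS3, an inhibitor of cytokine signalling (2.83 ± 0.21), SPRY1 (2.38 ± 0.23) and SPRY4 (1.93 ± 0.27). Of 9 secreted and cytoskeletal immediate-early genes 5 were higher and none lower in E28-DZ (median 0.72, with 21.7% of all genes higher), among them EDN1 (1.69 ± 0.42) and CCN1 (1.44 ± 0.20). In myocyte-like cells 5 were higher and none lower as well (median 0.70 against -0.04, with 21.1% of all genes higher), among them CCN2 (1.97 ± 0.26) and THBS1 (1.51 ± 0.46).

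Heat-shock proteins, which are chaperones, were called in both directions in E28-DZ, and whether they follow handling was not tested. Of 12 tested, 2 were higher (DNAJB4, 1.66 ± 0.16, and DNAJB1, 1.01 ± 0.15) and 3 lower there, with a median of 0.03, where 21.7% of all genes were higher and 15.2% lower. In E16-ZZ 7 were higher and 2 lower (median 0.32 against -0.09 over all genes, of which 18.2% were higher and 22.7% lower), led by HSPD1 (1.02 ± 0.09). In E16-DZ 6 were higher and 2 lower (median 0.22 against -0.06, with 18.9% of all genes higher and 20.4% lower). ATF4 stress targets, of which 6 were tested, had 4 higher and 1 lower in E16-ZZ, with TRIB3 at 1.73 ± 0.41, and 2 higher in E28-DZ. Upstream regulators (kinases, SRF partners and CREB) had 4 of 15 higher and 2 lower in E28-DZ with a median of -0.04, close to the shares of all genes.

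In the breed comparison of muscle progenitor- and myoblast-like cells 2 of 10 other immediate-early transcription factors were higher in DZ, MAFF (2.58 ± 0.30) and NR4A1 (2.47 ± 0.36), and 5 of 20 feedback regulators, led by GADD45G (1.71 ± 0.38), where 0.414% of all genes were higher. DNAJB4 of the heat-shock list (1.18 ± 0.28), ATF4 of the ATF4 stress list (0.90 ± 0.17) and THBS1 of the secreted list (0.87 ± 0.19) were also called higher there. In myocyte-like cells (0.160% of all genes higher) 1 of 10 of these factors was called, MAFF (2.69 ± 0.34), 1 of 20 feedback regulators, PPP1R15A (1.28 ± 0.25), and 1 of 8 secreted and cytoskeletal genes, CCN2 (1.08 ± 0.19). No list gene was called lower in DZ in either class. In other classes NR4A1 was higher in DZ in fibroblast-like cells (1.84 ± 0.19) and THBS1 in erythroid-like cells (3.99 ± 0.48), and DDIT4 was lower in neural progenitor-like cells (-1.25 ± 0.20).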

How the data were processed

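The authors made 10x Chromium 3′ v3 libraries and counted UMIs with Cell Ranger (3.1.0 in the headers of the E16 matrices, 3.0.2 in the other 6) on Sscrofa11.1. The deposited counts are whole UMI counts per gene and called cell, not normalized. Kept were barcodes of at least 200 genes, up to 30000 UMIs and up to 10% mitochondrial UMIs (13 genes), without those with the highest Scrublet scores (scanpy 1.11.5), up to 0.8% per 1000 barcodes of a library.

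A marker was positive in a cell with at least 1 UMI and at least 2 times its mean fraction over the libraries. A cell needed 3 positive markers. Among related classes the later one was taken (myocyte over muscle progenitor over dermomyotome, chondrocyte over sclerotome, cardiac over lateral mesoderm). This gate was set after marker counts were seen and before the levels of the members were computed. The members, marker lists and gene lists were chosen with earlier results of these data known.

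Counts were summed per library and class (at least 20 cells) and tested with edgeR 4.0.16 in R 4.3.3 (quasi-likelihood, TMM, default filter on low counts), adjusted by Benjamini-Hochberg over all genes tested, at 0.05. Classes needed 3 libraries. Folds are those of the fit, and CPM levels in the text are plain shares of all UMIs. The split by class and library and the correlations over the sums used CPM scaled by the TMM size factors. Nothing shows that libraries came from more than 1 sow each, so p-values of the late, breed and mitochondrial comparisons measure the spread between these libraries. Those of the class and library comparisons come from the same fit. They measure the spread left among the sums after both terms, with the sums of a library treated as independent. The mitochondrial contrast used log2(CPM + 1). On simulated counts 99% of 2-fold and 100% of 4-fold changes were recovered for endothelial-like against other classes (10312 genes). For late against early fibroblast-like cells 22% and 100% were recovered (10788 genes). In the measured late comparison of fibroblast-like cells the SE was 0.49 for FOS and 0.83 for ATF3. There edgeR did not call ATF3 at a log2 fold change of -2.27 (adjusted p = 0.064). Recovery at the spread of the members was not tested. Genes named from lists are, per list and comparison, up to 3 called genes of largest fold, and genes like the members those of highest correlation. Alternatives were DESeq2 1.42.0, other size factors, filters, gates and depths, and leaving out each library. Counting intervals cover counting error only. Sequences are from the RefSeq genome of the same build.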

Additional observations from a re-analysis of the deposited data

Results flagged for a closer look

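In 15 of 120 groups of 4 libraries (early or late, per gene and class, and all cells) 1 library lay far from the other 3. Chance flags about 1 in 20 groups of independent replicates, but these groups share libraries, related genes and cells and differ by stage and breed within, so that rate gives no chance value for this count. E28-DZ was that library in 10 of them. Its FOS level was 1327 CPM in muscle progenitor- and myoblast-like cells (next library 507), 2827 in chondrocyte-like cells (762), 3475 in fibroblast-like cells (727) and 2608 in all cells (613). Its KLF2 level was 985 CPM in endothelial-like cells (next library 555), 282 in myocyte-like cells (81.4), 620.0 in chondrocyte-like cells (71.2), 302 in fibroblast-like cells (50.6) and 282 in all cells (39.0), and its EGR1 level was 658 CPM in fibroblast-like cells (219).

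E16-ZZ was far above the other early libraries for ATF3, with 323 CPM in endothelial-like cells (next library 81.2) and 222 CPM in all cells (58.5). KLF2 in endothelial-like cells of E18-DZ was 536 CPM, against 292 in the next early library. E18-ZZ was far below the other early libraries for KLF2 in lateral mesoderm-like cells (1.59 CPM against 9.57, from 4 and 13 UMIs). The same held for KLF4 in epithelial-like cells (1.76 CPM against 9.54, from 3 and 59 UMIs), so both low values rest on few UMIs.

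Among genes other than JUNB and classes with a UMI in every ZZ library, DZ was below ZZ at both early stages and above it at both late stages in 3 cases. The mean log2 ratio of DZ to ZZ at E21 and E28 exceeded that at E16 and E18 by 3.34 for FOSB in erythroid-like cells, by 2.04 for EGR1 in endothelial-like cells and by 2.25 for EGR1 in chondrocyte-like cells. The FOSB values rest on 1 to 26 UMIs per library. EGR1 in erythroid-like cells had the same order but no UMI in E21-ZZ. These differences were not tested.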

How the results depend on the processing

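All 6 tested members stayed called on the class term and on the library term under every alternative run, and no result listed turned its direction. All genes called ranged from 8679 to 12941 for the class and from 5992 to 9440 for the library. The late and breed calls moved more. Pairs of a member and a class called higher in late libraries numbered 8, against 15 with no filter on low counts, 5 without E28 and 4 to 16 when 1 library was left out (4 without E28-DZ, 5 without E18-ZZ or E18-DZ, 16 without E16-ZZ). Pairs called lower in late libraries numbered 0, against 1 with no filter, with DESeq2 or with the 5% mitochondrial limit, 2 without E28 and 0 to 1 when 1 library was left out. Pairs called higher in DZ numbered 9, against 31 with no filter and 7 to 18 when 1 library was left out (18 without E16-ZZ or E16-DZ). The cause was not tested. Members differing over the mitochondrial limit numbered 0, against 4 with CPM over the other genes, which takes out the mitochondrial UMIs themselves. Without thinning the median share of cells was 74.0% for FOS in fibroblast-like and 80.4% in endothelial-like cells, and for KLF2 13.4% in fibroblast-like, 66.0% in endothelial-like and 2.56% in neuron-like cells, and at 1000 UMIs it was 29.0% for KLF2 in endothelial-like cells, as the share follows the depth per cell. Values of single genes that were called at first were followed under each alternative, and, counted over all alternatives, 131 lost their call. Of single classes against the others 52 lost it and 880 kept it, and of single libraries 36 lost it and 444 kept it. In the late comparison 29 lost it and 159 kept it, and in the breed comparison 14 and 119. Values not called at first were followed only over the mitochondrial limit, where 4 gained a call. No paired analysis was possible by replicate number because all libraries carry the same number, while the breed comparison itself pairs ZZ with DZ by the stage block.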
